A study of Mus musculus with 12 samples.

Results

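The 10 core genes of the circadian clock, Per1, Per2, Per3, Arntl, Clock, Cry1, Cry2, Nr1d1, Nr1d2 and Dbp, were followed through 12 RNA sequencing libraries of mouse extensor digitorum longus (EDL), a fast hindlimb muscle. They were chosen by name, as the rows of the count table whose Ensembl identifier carries one of these symbols in the GRCm38 annotation, and are 10 of the 55573 genes counted. All 10 had reads in all 12 libraries, and all 10 passed the filter on low counts in every comparison.

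The libraries formed 4 groups of 3. They came from myofibers taken singly, in pools of 5 or in pools of 20, and from the whole EDL, all from C57BL/6 mice with no transgene or treatment named. Every library was made with SMART-Seq HT, which amplifies full-length cDNA from very small inputs. By the labels, a single fiber was taken straight into a lysis mix, while RNA of whole muscle was purified with Trizol. How RNA of the pools was obtained is not described separately, so fiber isolation and RNA preparation cannot be told apart as sources of a difference from whole muscle. The labels give no time of day, animal, age or sex, and nothing in them ties a library to an animal, so the p-values speak of spread among libraries, which may be technical.

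The mammalian clock is a daily feedback loop of transcription. CLOCK and ARNTL (BMAL1) pair up and bind E-box sequences to switch on the Period and Cryptochrome genes, whose proteins return to the nucleus and silence the pair. The nuclear receptors NR1D1 and NR1D2 (REV-ERB alpha and beta), also switched on by CLOCK and ARNTL, repress Arntl through ROR elements, and DBP carries the rhythm outward by binding D-boxes. The loop runs in the nuclei of muscle fibers themselves and is known there for timing metabolic genes. Per1 and Per2 are also known to respond within the hour to cAMP signalling, serum and glucocorticoids.

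The genes lie on 8 chromosomes of GRCm38. The repressor genes are Per1 (chr11:69095217-69109960, plus strand), Per2 (chr1:91415982-91459324, minus strand), Per3 (chr4:151003652-151044665, minus strand), Cry1 (chr10:85131700-85185064, minus strand) and Cry2 (chr2:92403646-92434043, minus strand). The receptor genes are Nr1d1 (chr11:98767932-98775333, minus strand) and Nr1d2 (chr14:18204054-18239127, minus strand). The activator genes are Arntl (chr7:113207465-113314126, plus strand) and Clock (chr5:76209868-76304792, minus strand), and the output gene Dbp lies at chr7:45705088-45710203 on the plus strand. Reads were counted over exons, whose summed length ran from 2993 bases in Dbp to 13727 bases in Clock. Some exons are shared with a gene on the opposite strand: 8.5% of the exon bases of Nr1d1 with Thra, and 18.0% of those of Dbp with Sphk2. Smaller stretches of Cry2 (4.7%) and Arntl (0.4%) overlap the non-coding D930015M05Rik and Gm45355. Whether the counting used strand is not given in the sources used here, so reads in those stretches cannot be assigned to one gene.

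The sequence motifs through which the loop acts could be read in the promoters. RefSeq windows on GRCm38, each 300 bases long from 250 before to 50 after an annotated start, were available for 9 of the 10 genes, all but Per2, 13 windows in all. They were searched on both strands for the E-box CACGTG, the D-box TTATGTAA, the cAMP response element TGACGTCA and the ROR element core TAGGTCA. The 4 windows with a match are shown because they show where the loop's own motifs lie beside its genes, and capitals mark the motif.

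Per1 (chr11:69098699-69098998, plus strand): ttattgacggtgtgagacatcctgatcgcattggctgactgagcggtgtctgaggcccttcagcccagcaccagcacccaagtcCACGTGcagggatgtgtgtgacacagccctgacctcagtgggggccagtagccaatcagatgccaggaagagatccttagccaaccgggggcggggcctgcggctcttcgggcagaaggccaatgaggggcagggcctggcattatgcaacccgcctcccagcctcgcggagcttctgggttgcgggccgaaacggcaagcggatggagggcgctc
Cry1 (chr10:85185005-85185304, minus strand): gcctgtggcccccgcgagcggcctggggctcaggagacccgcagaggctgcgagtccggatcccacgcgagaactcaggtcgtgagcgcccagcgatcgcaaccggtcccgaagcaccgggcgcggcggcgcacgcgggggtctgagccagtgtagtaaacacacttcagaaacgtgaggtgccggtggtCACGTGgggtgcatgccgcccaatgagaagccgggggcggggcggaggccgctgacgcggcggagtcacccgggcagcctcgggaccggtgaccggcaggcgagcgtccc
Per3 (chr4:151044616-151044915, minus strand): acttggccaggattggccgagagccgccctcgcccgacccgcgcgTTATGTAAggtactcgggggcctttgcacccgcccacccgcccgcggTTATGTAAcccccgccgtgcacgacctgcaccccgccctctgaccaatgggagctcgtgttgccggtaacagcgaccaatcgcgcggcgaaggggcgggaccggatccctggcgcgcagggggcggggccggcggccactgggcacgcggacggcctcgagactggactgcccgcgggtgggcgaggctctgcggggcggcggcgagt
Arntl (chr7:113207261-113207560, plus strand): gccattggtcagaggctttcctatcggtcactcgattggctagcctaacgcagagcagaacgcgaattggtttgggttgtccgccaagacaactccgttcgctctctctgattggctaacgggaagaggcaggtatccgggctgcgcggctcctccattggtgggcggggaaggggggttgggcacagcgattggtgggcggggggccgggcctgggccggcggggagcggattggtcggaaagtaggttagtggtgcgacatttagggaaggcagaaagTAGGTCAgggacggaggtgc

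The Per1 and Cry1 windows each hold an E-box, which reads the same on both strands, beginning at positions -166 and -60 from the start. The Per3 window holds 2 D-boxes, at -205 and -158, and the Arntl window a ROR element core at 31 bases past the start. None of these windows, which do not cover Per2, held TGACGTCA. Among all 32851 mouse promoter windows of this length, 7.15% hold the E-box, 0.938% the D-box, 1.79% the cAMP response element and 2.61% the ROR element core. A match is a string of letters and not a binding site.

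In isolated fibers, in which the 3 fiber groups were averaged as log2 values, 3 clock genes rose and 1 fell against whole muscle at an adjusted p under 0.05. Per1, Per2 and Per3 were the genes that rose, by 21.3, 53.3 and 3.79-fold, and Arntl fell 2.53-fold. The size of the fold for Per2 is uncertain, as its reads in whole muscle were few. The other 6 did not pass the test. Over all 22110 genes tested, 15.2% were called, 7.46% higher and 7.78% lower, and the median log2 fold change was 0.40 against 0.51 for the clock genes. In bulk RNA, fewer cells of a type and less RNA per cell cannot be told apart. Levels below are CPM, the reads of a gene per 1e+06 reads of its library after TMM scaling of the totals. Those TMM factors came from all genes of all 12 libraries, with no filter, while each fit took its own after the low-count filter. Levels and fold changes are thus not on the same scale. The factor, which divides all CPM of a library, was 4.057 in 20-fiber pool 2 and 0.516 to 1.54 elsewhere. Each adjusted p is from edgeR's quasi-likelihood test with Benjamini-Hochberg adjustment over all genes tested.

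**Figure D1:**
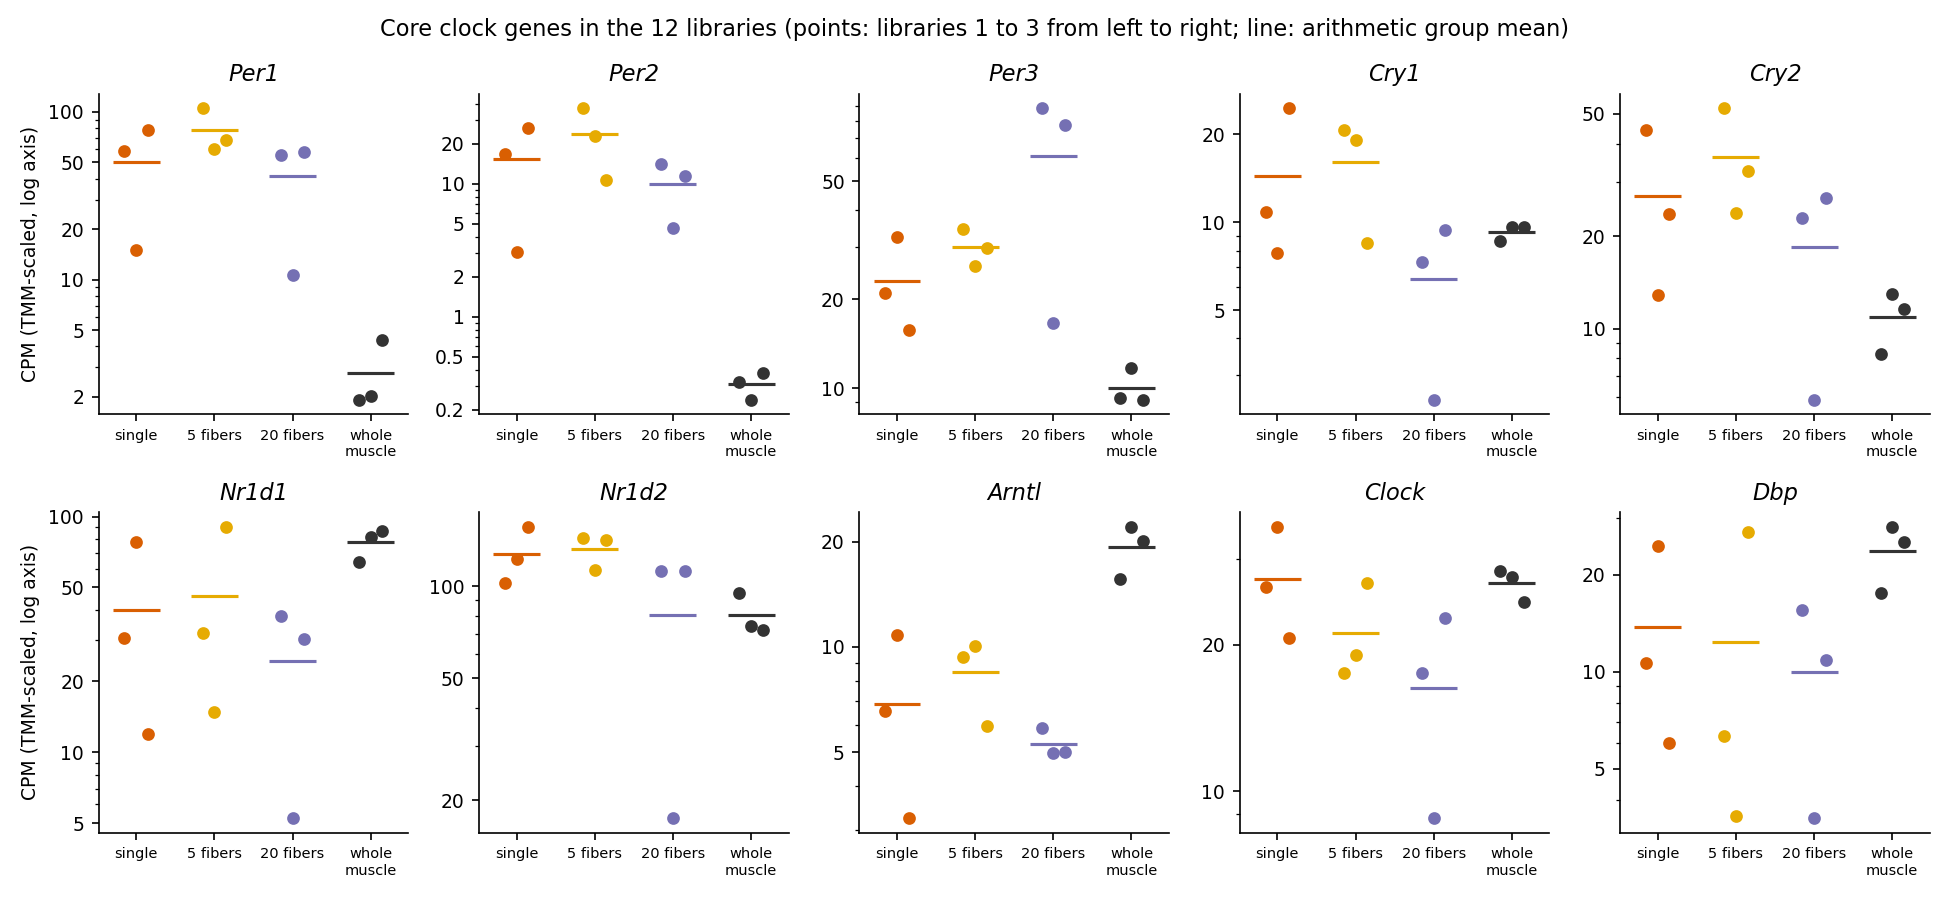
Level of each clock gene in CPM (log axis) in the 3 libraries of single fibers, pools of 5, pools of 20 and whole muscle, with a line at the arithmetic group mean. All 9 fiber libraries lie above whole muscle for Per1, Per2 and Per3 and all 9 lie below it for Arntl, while Nr1d1 and Dbp spread widely among the fiber libraries.

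The Period genes encode the proteins that accumulate and then close the loop. Per1 had 58.2, 15.1 and 77.6 CPM in single fibers, 105, 59.9 and 68.0 CPM in pools of 5, 55.3, 10.6 and 57.8 CPM in pools of 20, and 1.93, 2.02 and 4.38 CPM in whole muscle. Every fiber library lay above every muscle library, single fiber 2 and 20-fiber pool 2 being the lowest of the fibers. The log2 fold change in isolated fibers was 4.42 (SE 0.675, edgeR adjusted p = 3.52e-04). Such a complete separation upward, over 9 fiber and 3 muscle libraries, was seen in 2.17% of all genes tested.

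Per2 had 16.7, 3.05 and 26.3 CPM in single fibers, 37.1, 22.9 and 10.8 CPM in pools of 5, 14.0, 4.67 and 11.4 CPM in pools of 20, and 0.321, 0.237 and 0.374 CPM in whole muscle. The groups did not overlap, and the lowest fiber library was single fiber 2. This was a log2 fold change of 5.74 (SE 0.754, edgeR adjusted p = 9.47e-05). The muscle side of this difference rests on few reads, 4, 6 and 10 reads in the 3 libraries. The olfactory, vomeronasal and taste receptor genes stand here for background. In whole muscle 2 and in 20-fiber pool 2, the density of Per2 reads per kilobase of exon lay within that of 99% of the receptor genes. Over the 3 muscle libraries together the density of Per2 was 3.42, against 2.82 at the 99th percentile of the receptor genes. The muscle level of Per2 is thus near background.

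Per3 had 21.0, 32.5 and 15.7 CPM in single fibers, 34.6, 25.8 and 29.7 CPM in pools of 5, 88.5, 16.7 and 77.4 CPM in pools of 20, and 9.23, 11.7 and 9.14 CPM in whole muscle. Here 20-fiber pools 1 and 3 were the highest, and the lowest fiber library, single fiber 3, still lay above whole muscle. Its log2 fold change was 1.92 (SE 0.467, edgeR adjusted p = 0.0115). It was not called without whole muscle 1, 2 or 3, where the edgeR adjusted p was 0.110, 0.0861 and 0.118, nor when all fiber libraries formed 1 group (0.0663). Without pools 1 and 2 of 5 fibers and all pools of 20, the 5 fiber libraries richest in receptor-gene reads, an alternative chosen after seeing the data, it was 1.28 and was called (edgeR adjusted p = 0.0239).

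The cryptochromes, which bind CLOCK and ARNTL beside the Period proteins, did not pass the test in the pooled comparison. Cry2 had 44.4, 12.9 and 23.6 CPM in single fibers, 52.2, 23.8 and 32.7 CPM in pools of 5, 23.0, 5.87 and 26.5 CPM in pools of 20, and 8.27, 12.97 and 11.6 CPM in whole muscle. Of the 9 fiber libraries 7 lay above whole muscle, and 20-fiber pool 2 lay below it. Cry2 thus had a log2 fold change of 1.39 (SE 0.480, edgeR adjusted p = 0.0545). It passed the threshold under other scaling factors (edgeR adjusted p = 0.0215 and 0.0162), in DESeq2 (adjusted p = 0.00148), and in edgeR when single fiber 2 (0.0444), 5-fiber pool 3 (0.0415) or 20-fiber pool 2 (0.0263) was left out. In all, Cry2 was called in only 7 of 21 alternatives, and leaving out 1 library gave an edgeR adjusted p of up to 0.267.

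Cry1 had 10.8, 7.83 and 24.6 CPM in single fibers, 20.7, 19.2 and 8.46 CPM in pools of 5, 7.32, 2.46 and 9.38 CPM in pools of 20, and 8.59, 9.61 and 9.62 CPM in whole muscle. Fiber libraries lay on both sides of whole muscle, 4 above, 4 below and 1 within its range. Its log2 fold change of 0.44 had a 95% interval from -0.49 to 1.37 (edgeR adjusted p = 0.557).

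Arntl, whose protein pairs with CLOCK, went the other way from the Period genes. It had 6.56, 10.8 and 3.24 CPM in single fibers, 9.37, 10.1 and 5.96 CPM in pools of 5, 5.86, 4.98 and 5.00 CPM in pools of 20, and 15.7, 22.1 and 20.0 CPM in whole muscle. All 9 fiber libraries lay below all 3 muscle libraries, a separation downward that 9.42% of all genes tested showed. With a log2 fold change of -1.34, Arntl was called lower (SE 0.371, edgeR adjusted p = 0.0240).

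The call on Arntl did not hold in every fit. The edgeR adjusted p was 0.0611 and 0.0705 with other scaling factors, 0.0662 with all fiber libraries as 1 group, and 0.0715, 0.145 and 0.121 without whole muscle 1, 2 or 3. In 20-fiber pools 2 and 3 the density of Arntl reads lay within that of the receptor genes, so the level there is near what background reads gave. Clock, the partner of Arntl, had 26.2, 34.9 and 20.6 CPM in single fibers, 17.5, 19.0 and 26.8 CPM in pools of 5, 17.5, 8.81 and 22.7 CPM in pools of 20, and 28.3, 27.6 and 24.5 CPM in whole muscle. Its groups overlapped, and its log2 fold change of -0.20 had a 95% interval from -0.94 to 0.53 (edgeR adjusted p = 0.787).

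The NR1D receptors repress Arntl and are themselves strong targets of the CLOCK and ARNTL pair. Nr1d1 had 30.5, 78.1 and 11.96 CPM in single fibers, 32.2, 14.8 and 90.7 CPM in pools of 5, 37.7, 5.24 and 30.2 CPM in pools of 20, and 64.2, 82.2 and 86.7 CPM in whole muscle. Of the 9 fiber libraries 7 lay below whole muscle, single fiber 2 lay within its range and 5-fiber pool 3 above it. The log2 fold change was -1.01, with a 95% interval from -2.16 to 0.14 (edgeR adjusted p = 0.211). Without 5-fiber pool 3, where Nr1d1 was highest, it was -1.40 and was called (edgeR adjusted p = 0.0312). Nr1d1 was called in only 2 of 21 alternatives, and leaving out 1 library gave an edgeR adjusted p of up to 0.389.

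Nr1d2 had 102, 123 and 157 CPM in single fibers, 144, 113 and 142 CPM in pools of 5, 112, 17.5 and 112 CPM in pools of 20, and 95.2, 74.2 and 71.7 CPM in whole muscle. In 8 of 9 fiber libraries the level lay above whole muscle. In 20-fiber pool 2, where a TMM factor of 4.057 divided the CPM of every gene, it lay far below. Its log2 fold change of 0.58 had a 95% interval from -0.43 to 1.59 (edgeR adjusted p = 0.447).

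Dbp, the D-box activator that relays the rhythm to output genes, had 10.6, 24.6 and 6.02 CPM in single fibers, 6.31, 3.56 and 27.2 CPM in pools of 5, 15.5, 3.51 and 10.9 CPM in pools of 20, and 17.6, 28.2 and 25.3 CPM in whole muscle. The same 2 libraries stood apart as for Nr1d1: single fiber 2 and 5-fiber pool 3 lay within the range of whole muscle and the other 7 lay below it. The fitted log2 fold change was -0.86, with a 95% interval from -1.92 to 0.21 (edgeR adjusted p = 0.257). Without 5-fiber pool 3, the fiber library with the most Dbp, it was -1.37 and was called (edgeR adjusted p = 0.0159). Dbp was called in only 2 of 21 alternatives, and leaving out 1 library gave an edgeR adjusted p of up to 0.51.

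The genes that share exon bases with Nr1d1 and Dbp on the opposite strand were also measured. Thra averaged 41.2 ± 19.6 CPM in isolated fibers and 37.3 ± 4.40 CPM in whole muscle (SD, n = 9 and 3), with a log2 fold change of 0.22 (edgeR adjusted p = 0.827). Sphk2 averaged 4.24 ± 2.01 CPM in isolated fibers and 7.51 ± 1.33 CPM in whole muscle (SD, n = 9 and 3), with a log2 fold change of -0.78 (edgeR adjusted p = 0.187). Their part in the reads of Nr1d1 and Dbp was not tested.

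Libraries differed within their groups in more than the clock genes. Single fiber 2 was the lowest of the single fibers for Per1, Per2, Cry1 and Cry2 and the highest for Nr1d1, Dbp, Arntl, Clock and Per3. Among the pools of 5, pool 3 was the lowest for Per2 and Cry1 and the highest for Nr1d1, Dbp and Clock. The libraries parted on Arntl, of which pool 3 had the least among the pools of 5. These were also the most deeply read fiber libraries, at 27787120 and 24719718 counted reads, and those in which the fewest receptor genes had a read, 4.85% and 4.58%. Their part in the levels of Nr1d1 and Dbp was not tested.

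Further comparisons set each fiber group on its own against whole muscle, and they share the same 3 muscle libraries. In single fibers Per1, Per2 and Per3 rose and Arntl fell, 4 of 10 genes where 33.6% of the 14028 genes tested were called, 13.9% higher and 19.8% lower. The log2 fold changes were 4.27 (SE 0.709) for Per1, 5.71 (SE 0.910) for Per2, 1.23 (SE 0.307) for Per3 and -1.47 (SE 0.405) for Arntl, with edgeR adjusted p of 0.00492, 0.00424, 0.0191 and 0.0277. Without whole muscle 1, 2 or 3, only Per1 and Per2 stayed called, with edgeR adjusted p of 0.0912, 0.0867 and 0.105 for Per3 and 0.0810, 0.111 and 0.0998 for Arntl. Per3 was called in 6 and Arntl in 8 of 12 alternatives: Per3 was also lost with no filter on low counts (edgeR adjusted p = 0.0506), and both in the fit on all 12 libraries (0.102 and 0.0696). Without single fiber 3 the log2 fold change of Per2 was 4.99 and was called (edgeR adjusted p = 0.0115). Without single fiber 2, Cry1, Cry2 and Nr1d2 were also called higher, and Nr1d1 and Dbp were called lower, at log2 fold changes of -1.80 and -1.42 (edgeR adjusted p = 0.00243 and 0.00436). Over the 12 alternatives, Cry1, Nr1d2 and Dbp were each called in 1, Nr1d1 in 2 and Cry2 in 3.

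In pools of 5, Per1, Per2, Per3 and Cry2 rose and none fell, where 8.85% of 14764 genes tested were called, 4.63% higher and 4.22% lower. The log2 fold changes were 4.84 (SE 0.480), 6.28 (SE 0.626), 1.64 (SE 0.272) and 1.77 (SE 0.351), with edgeR adjusted p of 0.00387, 0.00387, 0.0180 and 0.0270. Arntl had a log2 fold change of -1.11 (edgeR adjusted p = 0.0874). No clock gene was called without whole muscle 1, where the edgeR adjusted p was 0.0562 for Per1 and 0.0527 for Per2. Without pool 1, whole muscle 2 or whole muscle 3, Per1 and Per2 stayed called, and the edgeR adjusted p was 0.0619, 0.145 and 0.150 for Per3 and 0.0684, 0.166 and 0.166 for Cry2. Neither was called in the fit on all 12 libraries (edgeR adjusted p = 0.0615 and 0.0599). Without pool 3, Arntl, Nr1d1 and Dbp were called lower, at log2 fold changes of -0.81, -1.54 and -2.05, and Cry1 and Nr1d2 were called higher. Of these genes, Cry1, Nr1d1 and Dbp were each called in only 1 of 13 alternatives.

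In pools of 20, Per1, Per2, Per3 and Cry2 rose and Arntl fell, where 43.9% of 16969 genes tested were called, 30.3% higher and 13.5% lower. The log2 fold changes were 4.33 (SE 0.527) for Per1, 5.51 (SE 0.480) for Per2, 3.06 for Per3, 1.23 (SE 0.368) for Cry2 and -1.17 (SE 0.341) for Arntl. The edgeR adjusted p was 5.27e-05, 5.44e-06, 2.73e-04, 0.0129 and 0.0112. These fits took scaling factors from their own 6 libraries after the low-count filter, while CPM were scaled over all 12 with no filter. Cry2 was called although pool 2 lay below whole muscle in CPM. The read densities of Per2, Cry2 and Arntl in pool 2, and of Arntl in pool 3, lay within that of the receptor genes. Without pool 2, Nr1d2 was also called higher (edgeR adjusted p = 0.0189), and Nr1d1 and Dbp were called lower at log2 fold changes of -1.06 and -0.72 (edgeR adjusted p = 6.17e-04 and 0.0239). Nr1d1 and Dbp were also called lower without pool 1 (-1.92 and -1.39) and without whole muscle 1 (-1.62 and -1.20). Arntl was not called without pool 3 or whole muscle 2 (edgeR adjusted p = 0.0538 and 0.0716), nor Cry2 without whole muscle 1 or 3 (0.184 and 0.0529). Arntl was also lost with upper-quartile factors (-0.84, edgeR adjusted p = 0.0903), and Cry2 with no filter on low counts (0.66, edgeR adjusted p = 0.386) and in the fit on all 12 libraries (0.94, edgeR adjusted p = 0.188). Without pool 1 the log2 fold change of Per3 was 2.47, and with no filter that of Per2 was 4.87 and that of Arntl -2.02, all of them called.

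**Figure D2:**
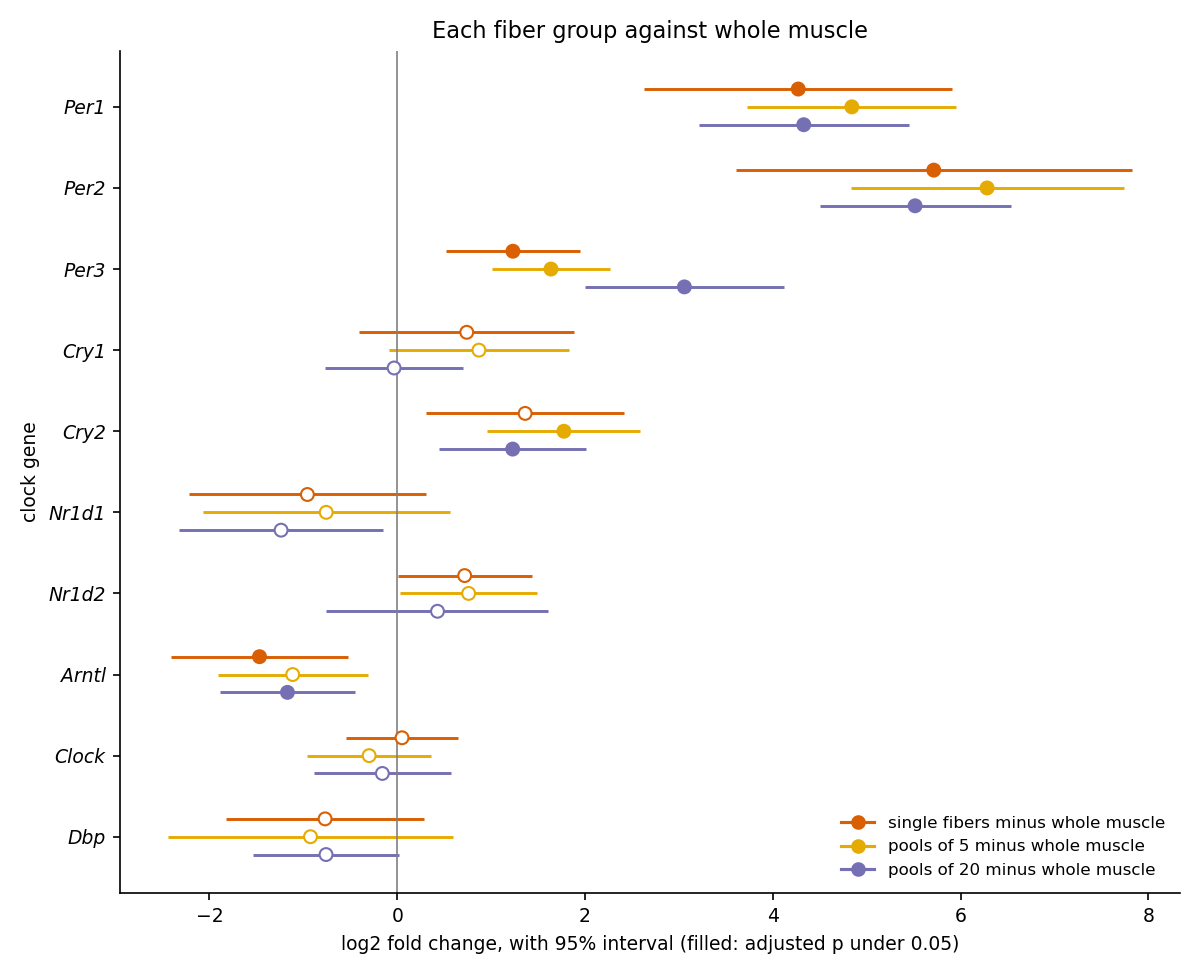
Log2 fold change of each clock gene in single fibers, pools of 5 and pools of 20 against whole muscle, with 95% intervals and filled points at an adjusted p under 0.05. Per1, Per2 and Per3 are filled in all 3 comparisons, Cry2 in both pools and Arntl in single fibers and pools of 20.

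Among the fiber groups themselves, 1 clock gene was called over the 3 comparisons. Between single fibers and pools of 5 no clock gene was called, where 0.0157% of 12700 genes were. The log2 fold changes ran from -0.66 for Per2 to 0.31 for Clock, and that of Per2 had a 95% interval from -2.49 to 1.18. Between pools of 5 and pools of 20 no clock gene was called either, where edgeR called 0% of 17113 genes, with 1502 at an unadjusted p under 0.05 and 179 called by DESeq2. The largest differences there were 1.18 for Cry1 (95% interval -0.01 to 2.37), -1.14 for Per3 (-2.44 to 0.16) and 1.05 for Per2 (-0.18 to 2.27).

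Between single fibers and pools of 20, Per3 was the only clock gene called, where 36.1% of 16978 genes tested were, 8.52% higher and 27.5% lower. It averaged 23.1 ± 8.57 CPM in single fibers and 60.9 ± 38.7 CPM in pools of 20 (SD, n = 3 each), and pool 2, at 16.7 CPM, lay among the single fibers. The log2 fold change was -1.82, with a 95% interval from -2.88 to -0.77 (edgeR adjusted p = 0.0121), while the median over all genes in this comparison was -0.74. The call held in 7 of 12 alternatives and was lost, among others, with the low-count filter off (edgeR adjusted p = 0.214) and without single fiber 1, 2 or 3 (0.216, 0.0816 and 0.304). The other 9 clock genes had log2 fold changes from -0.41 for Arntl to 0.75 for Cry1.

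The order of the clock genes by level also differed, on the scale of CPM per kilobase of exon. In whole muscle Nr1d1 led at 25.3 ± 3.86, followed by Nr1d2 at 14.9 ± 2.39, Dbp at 7.92 ± 1.83, Cry1 at 2.78 ± 0.177, Arntl at 2.56 ± 0.437, Clock at 1.95 ± 0.148, Cry2 at 1.73 ± 0.382, Per3 at 1.04 ± 0.149, Per1 at 0.493 ± 0.247 and Per2 at 0.0531 ± 0.0118 (SD, n = 3). Of these neighbours, Cry1 and Arntl differed by less than the larger of their SDs, and so did Clock and Cry2. In whole muscle the Period genes thus took the last 3 places.

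In single fibers Nr1d2 led at 23.6 ± 5.08 CPM per kilobase, before Nr1d1 at 13.1 ± 11.1 and Per1 at 8.93 ± 5.69 (SD, n = 3). Dbp, Cry1, Cry2, Per2 and Per3 followed between 4.60 and 2.40, and Clock at 1.99 ± 0.527 and Arntl at 0.913 ± 0.505 came last. Only Clock and Arntl, of these neighbours, differed by more than the larger of their SDs. In pools of 5 and pools of 20 the first 3 places were held by Nr1d2, Nr1d1 and Per1 as well, at 24.6 ± 3.21, 14.9 ± 12.9 and 13.8 ± 4.30 in pools of 5 and at 14.9 ± 10.1, 7.92 ± 5.53 and 7.33 ± 4.71 in pools of 20. Clock and Arntl held the last 2 places in all 3 fiber groups.

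Ratios between clock genes within a library do not depend on how libraries are scaled to each other. The ratios below are of reads per kilobase of exon and were chosen after the values had been seen, so they carry no test. Per2 over Per3 had a lowest value of 0.154, a median of 0.594 and a highest of 2.75 in the 9 fiber libraries, against 0.0334, 0.0571 and 0.0672 in whole muscle. All fiber libraries lay above all muscle libraries. Per1 over Per3 overlapped, with 0.790, 3.90 and 8.41 in the fiber libraries against 0.295, 0.356 and 0.818 in whole muscle, and 8 of 9 fiber libraries lay above it. Cry2 over Cry1 overlapped too, with 0.505, 1.33 and 2.17 in fiber libraries against 0.509, 0.635 and 0.713 in whole muscle, 7 fiber libraries above and 1 below.

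The paired receptors gave the opposite order. Nr1d1 over Nr1d2 had a lowest value of 0.134, a median of 0.524 and a highest of 1.13 in the fiber libraries, against 1.19, 1.95 and 2.13 in whole muscle, so that Nr1d1 was the denser of the pair in all 3 muscle libraries. The ratio was 1.11 in single fiber 2 and 1.13 in 5-fiber pool 3, the 2 libraries with high Nr1d1, and at most 0.591 in the other 7. Dbp over Tef, a related D-box activator, ran from 0.117 to 0.422 in fiber libraries and from 0.438 to 0.591 in whole muscle, which were again apart. Arntl over Clock had a median of 0.564 in fiber libraries and 1.46 in whole muscle, and 8 of 9 fiber libraries lay below whole muscle.

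**Figure D3:**
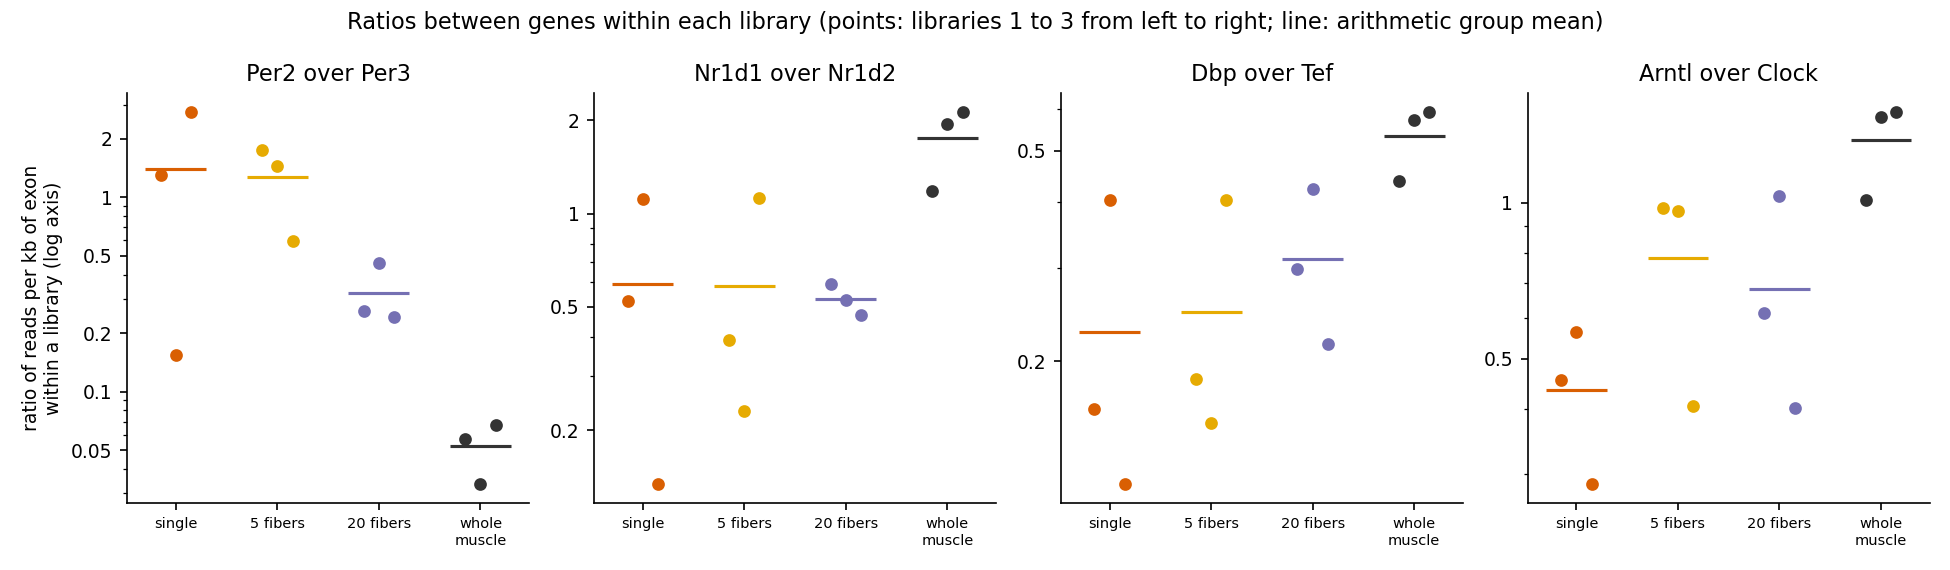
Ratios of reads per kilobase of exon between 2 genes in the same library (log axis), in single fibers, pools of 5, pools of 20 and whole muscle, with a line at the arithmetic group mean. Fiber libraries lie above whole muscle for Per2 over Per3 and below it for Nr1d1 over Nr1d2 and Dbp over Tef, and 1 fiber library overlaps whole muscle for Arntl over Clock.

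Genes around the core loop were read from 4 lists. Among 18 clock accessory genes, 2 rose and 0 fell in isolated fibers, with a median log2 fold change of 0.36, where 7.46% of all genes were called higher and 7.78% lower. DESeq2 called 4 of them higher and 0 lower, where it called 6411 of the 22110 genes in either direction. In single fibers 4 rose and 2 fell, while pools of 5 had 3 higher and 0 lower and pools of 20 had 6 higher and 1 lower. Over all genes tested, 13.9% were higher and 19.8% lower in single fibers, and 4.63% and 4.22% in pools of 5. In pools of 20 the shares were 30.3% and 13.5%. The 2 genes that edgeR called higher in isolated fibers were Ciart and Bhlhe40. Ciart, also called CHRONO, represses the CLOCK and ARNTL pair, and Bhlhe40 is a repressor that competes for E-boxes. Ciart had 8.09, 36.5 and 4.41 CPM in single fibers, 26.7, 11.3 and 76.5 CPM in pools of 5, 42.7, 6.87 and 27.4 CPM in pools of 20, and 1.20, 0.672 and 1.46 CPM in whole muscle.

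Every fiber library lay above whole muscle for Ciart, a separation upward that 2.17% of all genes tested showed. Its log2 fold change was 4.61 (SE 0.824, edgeR adjusted p = 0.00128). Ciart was low in whole muscle, which leaves the size of this change uncertain. Unlike Per1 and Per2, it was highest among its group in single fiber 2 and 5-fiber pool 3. Bhlhe40 averaged 174 ± 80.5 CPM in isolated fibers and 47.4 ± 2.88 CPM in whole muscle (SD, n = 9 and 3), a log2 fold change of 1.97 (SE 0.604, edgeR adjusted p = 0.0364). Tef averaged 121 ± 52.8 CPM in isolated fibers and 116 ± 12.4 CPM in whole muscle, and Rora, an activator of Arntl at ROR elements, 81.2 ± 60.8 and 55.2 ± 7.91 CPM (SD, n = 9 and 3). Neither passed the test, at log2 fold changes of 0.15 and 0.40 (edgeR adjusted p = 0.941 and 0.599).

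Of 6 output genes known to follow the clock, edgeR called 0, where 7.46% of all genes were called higher and 7.78% lower. It had 2 of them at an unadjusted p under 0.05, as were 7394 of the 22110 genes tested. DESeq2 called 2 higher and 0 lower, where it called 6411 genes in either direction. The median log2 fold change of the 6 was 0.62. Taken singly, single fibers had 4 of the 6 higher and 0 lower, pools of 5 had 2 higher and 0 lower, and pools of 20 had 1 higher and 2 lower. The shares of all genes called higher and lower were 13.9% and 19.8% in single fibers and 4.63% and 4.22% in pools of 5. For pools of 20 they were 30.3% and 13.5%. Usp2, a ubiquitin protease, had a log2 fold change of 1.35 (edgeR adjusted p = 0.0947), Nampt, of NAD salvage, 0.11 (0.981), and Alas1, of heme synthesis, -0.56 (0.532).

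The Period genes are also known to answer acute signals. Genes of 2 such responses were listed, with earlier results of these data known. Whether either response had a part in the levels of the Period genes was not tested. Among 10 glucocorticoid-responsive genes 1 rose and 1 fell, with a median log2 fold change of 0.00, and this share is near that of all genes (7.46% higher and 7.78% lower). DESeq2 called 3 higher and 1 lower, where it called 6411 of the 22110 genes in either direction. In single fibers 3 rose and 2 fell, while pools of 5 had 2 higher and 1 lower and pools of 20 had 0 higher and 1 lower. Of all genes, 13.9% were called higher and 19.8% lower in single fibers, and 4.63% and 4.22% in pools of 5. The shares were 30.3% and 13.5% in pools of 20. Errfi1, an inhibitor of EGF receptor signalling, rose (1.70, SE 0.569, edgeR adjusted p = 0.0493), and Pdk4, which restrains pyruvate oxidation, fell (-2.06, SE 0.510, edgeR adjusted p = 0.0130). Klf9 and Dusp1 had log2 fold changes of 1.10 and 1.18 (edgeR adjusted p = 0.187 and 0.124).

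Of 9 early genes that respond to CREB or SRF, 8 rose and 0 fell, where 7.46% of all genes were called higher, with a median log2 fold change of 3.87, against 0.40 over all genes. Egr1, a zinc finger factor, averaged 1013 ± 616 CPM in isolated fibers and 13.6 ± 3.08 CPM in whole muscle (SD, n = 9 and 3), a log2 fold change of 6.19 (SE 0.922, edgeR adjusted p = 2.85e-04). Fos, a subunit of AP-1, had a log2 fold change of 6.503 (edgeR adjusted p = 3.77e-04), Fosb, its relative, 8.66 (6.92e-06), and Btg2, an antiproliferative gene, 4.64 (0.00130). Crem, with 0.20 (0.819), was the member that did not pass. In single fibers, pools of 5 and pools of 20 taken singly, 9, 8 and 8 of the 9 rose, where 13.9%, 4.63% and 30.3% of all genes were called higher, and Crem fell in pools of 20 (-0.93, edgeR adjusted p = 0.0334).

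**Figure D4:**
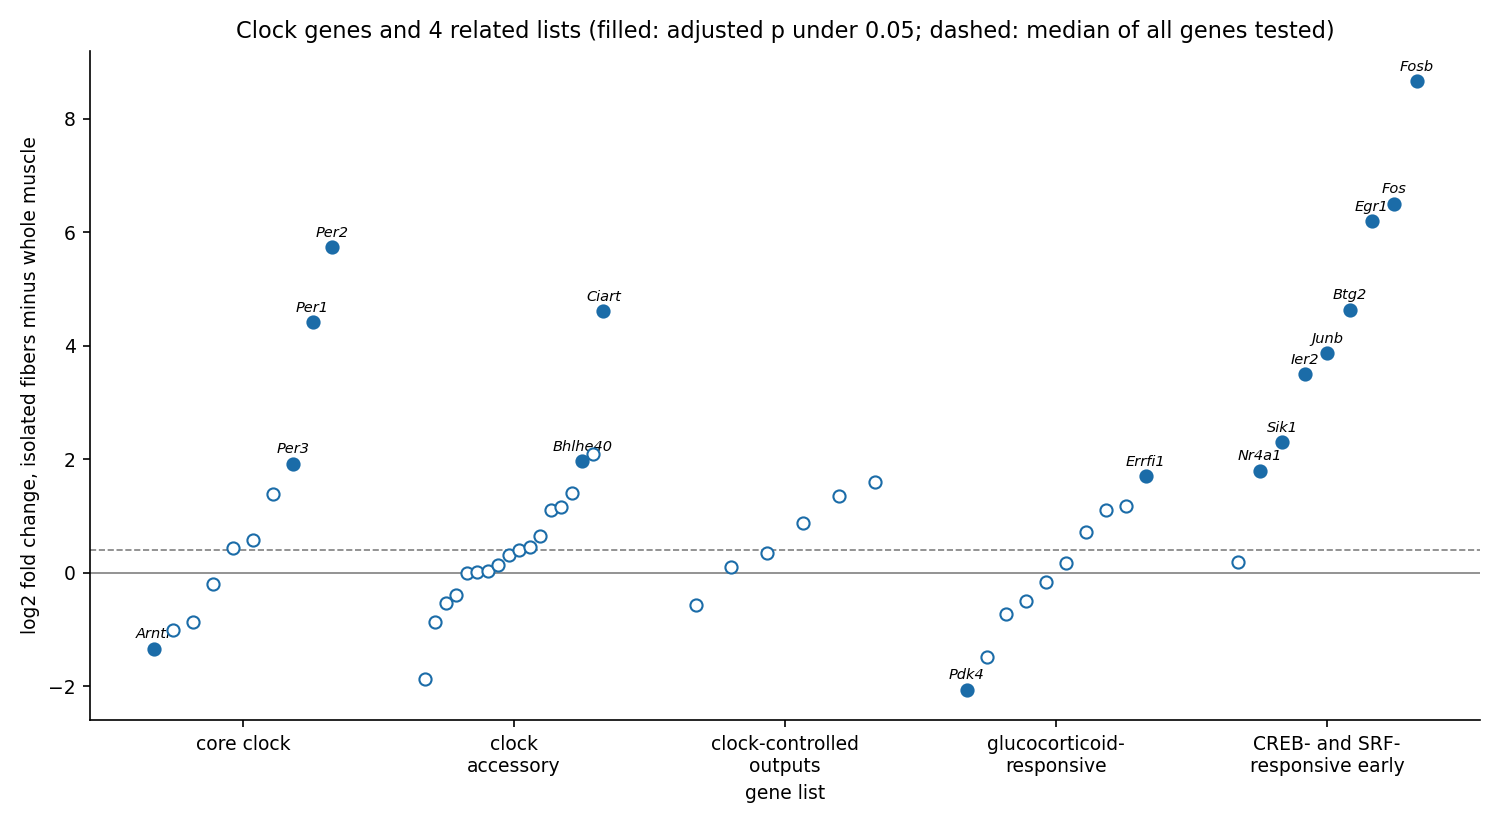
Log2 fold change in isolated fibers against whole muscle of each gene of the core clock and of 4 related lists, ordered within a list, with filled points at an adjusted p under 0.05 and a dashed line at the median of all genes tested (0.40). Filled and positive points are 8 of 9 CREB- and SRF-responsive early genes, beside Per1, Per2, Per3, Ciart, Bhlhe40 and Errfi1.

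Genes with the most similar pattern were sought among protein-coding genes averaging at least 10 CPM. Likeness was the root mean square difference of log2 CPM (offset 0.5) over the 12 libraries, after centring each gene on its own mean. For Per1 the nearest of 6092 genes were Per2 (0.44), Hk2 (0.44) and Slc20a1 (0.70), where the median gene was at 2.10. For Per2 they were Per1 (0.44), Hk2 (0.60) and Ikzf4 (0.74), with the median gene at 2.23. Hk2, which encodes a hexokinase, had 1368, 682 and 1712 CPM in single fibers, 2548, 1542 and 1495 CPM in pools of 5, 2588, 356 and 2259 CPM in pools of 20, and 65.1, 86.0 and 76.8 CPM in whole muscle.

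Arntl, Nr1d1 and Dbp had other neighbours. For Arntl the nearest of 6093 genes were Rab11fip5 (0.34), Elmo2 (0.42) and Lama2 (0.44), with the median gene at 1.10. For Nr1d1 they were Tm2d3 (0.27), Msrb2 (0.32) and Car14 (0.37), and for Dbp they were Lonp2 (0.31), Actg1 (0.33) and Acad8 (0.36), with the median gene at 1.01 and 0.96. These are descriptions over 12 libraries that share group, depth and scaling.

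The libraries held 4702823 to 27787120 counted reads. Myofiber markers were high in every library, 10790 to 316484 CPM summed over 7 genes, the lowest being 20-fiber pool 2. Of 27 markers of other cell types, 24 fell and 0 rose in isolated fibers against whole muscle, where 7.78% of all genes were called lower. In single fibers 24 fell and 0 rose, where 19.8% of all genes were lower. Pools of 5 had 8 lower and 0 higher, where 4.22% of all genes were lower. Pools of 20 had 16 lower and 1 higher, where 13.5% of all genes were lower and 30.3% higher. By cell type, pools of 5 had 0 of 5 endothelial and 0 of 2 erythroid genes lower, and 3 of 3 adipocyte genes. Pools of 20 had 3 of 5, 0 of 2 and 3 of 3 lower. Endothelial genes summed to 219, 182 and 17.7 CPM in the pools of 5 and 155 to 209 CPM in whole muscle. Those of smooth muscle and pericytes summed to 334, 193 and 33.1 CPM and to 281 to 302 CPM. The summed level of the 27 markers was 30.3 to 231 CPM in single fibers and 197 to 1222 CPM in pools of 5. It was 108 to 1062 CPM in pools of 20 and 5499 to 6454 CPM in whole muscle. In the single fibers 5, 11 and 10 of the 27 were at 0. The part of other cell types in the lower Arntl of fibers, and in the higher Period genes, was not tested. The share of receptor genes with a read was 4.85% to 26.7% in single fibers, 4.58% to 68.9% in pools of 5, 78.7% to 97.3% in pools of 20 and 2.32% to 4.85% in whole muscle. In 20-fiber pool 2, 5 clock genes (Per2, Arntl, Clock, Cry1 and Cry2) lay within the read density of the receptor genes, and 1 predicted gene, Gm10800, took 20.9% of the reads.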

How the data were processed

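The deposited values are raw read counts per Ensembl gene in 12 libraries, whole numbers with no normalization. Per the submitters' processing notes, HISAT2, SAMtools and featureCounts were used on GRCm38 (mm10), without versions, and strand and multi-mapping settings are not given in the sources used here. Symbols, coordinates and exon lengths came from GENCODE vM21 of GRCm38, which matched 55480 of 55573 identifiers.

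Counts were tested with edgeR 4.0.16 in R 4.3.3 (TMM factors, filterByExpr, glmQLFit and glmQLFTest, two-sided, Benjamini-Hochberg adjusted p under 0.05 over all genes tested). Isolated fibers against whole muscle used all 12 libraries and 4 groups, and each pair of groups its own 6 libraries. The fits were also run on simulated data in which all libraries spread alike. Fiber libraries here varied more than whole muscle, a case that the simulation did not cover. edgeR's test gives no SE, so each SE was taken as the absolute log2 fold change over the square root of the F statistic. Intervals are at the 95% level and were built from that SE with the t distribution. Alternatives were RLE and upper-quartile factors, no filter, DESeq2 1.42.0, a replicate block, other groupings and leaving out libraries. No libraries were near copies of each other.

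The clock genes, the related lists and the markers were chosen with earlier results of these data known. From each related list, the 3 most abundant genes by mean CPM and the 2 called genes that changed most in isolated fibers are named. 1 gene of the output list is not reported here, and the list's counts and median leave it out. The 3 nearest patterns were taken for Per1, Per2, Nr1d1, Dbp and Arntl. Background density is the 99th percentile of reads per kilobase of exon over 1506 receptor genes in the same library. Counted reads do not mark molecules, and depth limits the low values, as for Per2 in whole muscle.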

Additional observations from a re-analysis of the deposited data

Results flagged for a closer look

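One difference between fiber groups passed the test. Per3 was lower in single fibers than in pools of 20, with a log2 fold change of -1.82 (edgeR adjusted p = 0.0121). The call held in 7 of 12 alternatives and was lost with no filter on low counts (edgeR adjusted p = 0.214) and without single fiber 1, 2 or 3 (0.216, 0.0816 and 0.304), beside the replicate block. It was 21.0, 32.5 and 15.7 CPM in single fibers and 88.5, 16.7 and 77.4 CPM in pools of 20, so that 20-fiber pool 2 lay within the range of the single fibers. The median log2 fold change over all genes in this comparison was -0.74. The share of receptor genes with a read was 4.85% to 26.7% in single fibers and 78.7% to 97.3% in pools of 20, and its part in the difference was not tested.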

How the results depend on the processing

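In isolated fibers Per1 and Per2 were called higher in all 21 alternatives, Per3 in 17, and Arntl lower in 15. The number of clock genes called lower was 1 and became 0 with RLE factors, with upper-quartile factors and with all fiber libraries as 1 group. It was 3 without single fiber 2 and 5-fiber pool 3, which were chosen for removal after their values were seen, so that the calls on Nr1d1 (-1.67) and Dbp (-1.58) there support nothing. Leaving out 1 library at a time gave 2 to 4 genes called higher and 0 to 3 called lower.

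Single fibers had 2 clock genes called lower with no filter and 0 in the fit on all 12 libraries, and 2 to 6 called higher and 0 to 3 called lower when 1 library was left out. Pools of 5 had 2 called higher with the replicate block and in the fit on all 12 libraries, and 1 called lower without pools 1 and 2, an alternative added after seeing the data in which pool 3 stands alone and is assumed to vary like whole muscle. Leaving out 1 library gave 0 to 6 called higher and 0 to 3 called lower. Pools of 20 had 2 called lower with RLE factors and in DESeq2, and 3 to 5 called higher and 0 to 3 called lower when 1 library was left out. The block ended the calls on Per3 in single fibers (edgeR adjusted p = 0.0576), on Per3 and Cry2 in pools of 5 (0.0781 and 0.0945) and on Per3 in single fibers against pools of 20 (0.0911). Per3 in single fibers against pools of 20 made 1 gene called lower, and 0 with no filter, with the block and without any 1 single fiber, a range of 0 to 1.

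Some log2 fold changes of genes that were not called turned their sign. Clock did so with upper-quartile factors in isolated fibers (0.070), in single fibers (-0.076, and -0.083 with no filter) and in pools of 20 (0.090), and Cry1 in pools of 20 (0.18). Nr1d2 in pools of 20 was -0.076 with no filter. Without 5-fiber pools 1 and 2, Cry1 was -0.23, Nr1d1 0.13 and Dbp 0.10 in pools of 5. In single fibers against pools of 20, RLE factors gave 0.011 and DESeq2 0.011 for Dbp, upper-quartile factors -0.079 for Per2, -0.028 for Clock and -0.079 for Cry2, no filter 0.27 for Per1, 0.43 for Arntl and 0.47 for Dbp, and the fit on all 12 libraries 0.21, 0.17 and 0.37. The replicate block there gave -0.31 for Per2 and -0.017 for Cry2. In pools of 5 against pools of 20, upper-quartile factors gave -0.084 for Arntl, -0.23 for Clock and -0.32 for Dbp, and the block -0.30 for Dbp.

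Leaving out 1 library turned further signs. Against whole muscle, single fibers gave -0.12 to 0.13 for Clock and -0.022 to 1.04 for Cry1, and pools of 20 gave -0.14 to 0.61 for Nr1d2 and -0.36 to 0.033 for Cry1. Single fibers against pools of 5 gave -0.90 to 0.18 for Cry1, -1.05 to 0.67 for Nr1d1, -0.30 to 0.22 for Nr1d2 and -0.47 to 1.37 for Dbp. Single fibers against pools of 20 gave -0.25 to 0.66 for Per1, -0.085 to 1.003 for Per2, -0.61 to 0.59 for Arntl, -0.084 to 0.81 for Cry2, -0.25 to 1.13 for Nr1d1 and -0.34 to 0.78 for Dbp. Pools of 5 against pools of 20 gave -0.10 to 1.36 for Nr1d1 and -1.10 to 0.73 for Dbp.

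Counts over all genes moved more. Isolated fibers had 3370 called, 6411 in DESeq2, 596 with 1 fiber group, 8587 without single fiber 2 and 5-fiber pool 3, and 1193 to 7271 with 1 library left out. Single fibers had 4716, 3132 with the block, 2854 in the fit on all 12 libraries and 1540 to 7617 with 1 left out. Pools of 5 had 1307, 2535 with no filter, 3093 in DESeq2, 231 with the block, 7422 without pools 1 and 2, and 7 to 7920 with 1 left out. Pools of 20 had 7446, 23388 with no filter, and up to 13512 with 1 left out. Single fibers against pools of 5 had 2, 768 with no filter, 423 in DESeq2, 0 with the block, 755 in the fit on all 12 libraries and 0 to 833 with 1 left out. Single fibers against pools of 20 had 6123, 15348 with no filter, 7 with the block and 3931 to 10714 with 1 left out. Pools of 5 against pools of 20 had 0, 6 with no filter, 179 in DESeq2, 1 with the block and 0 to 86 with 1 left out. The median log2 fold change of all genes in isolated fibers was 0.40, 0.56 with RLE and 0.69 with upper-quartile factors, which called 2119 genes higher and 1136 lower against 1650 and 1720. The cause was not tested.

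Groups share replicate numbers, but of 18 same-numbered pairs only 3 had deviations from the group means correlated over 0.1, with r from -0.244 to 0.614, so the numbers were not taken to pair samples. Depth limits Per2 in whole muscle, and reads on receptor genes limit the low genes of 20-fiber pool 2.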
